A study of Mus musculus with 24 samples.

Results

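The genes described are those that encode the cytosolic translation initiation factors (eIF) and elongation factors (eEF) of the mouse. They were taken from the count table by name: every gene whose symbol starts with Eif1 to Eif6, Eef1 or Eef2, without the eIF2 kinases (Eif2ak genes) and without Eif2s3x and Eif2s3y, the X-linked and Y-linked genes for the gamma subunit of eIF2. This gave 53 of 14106 genes, 46 for initiation factors and 7 for elongation factors. The RNA came from splenic B lymphocytes grown with interleukin 4 and lipopolysaccharide for 60 h, of which the last 32 h were with 2 µM 4-hydroxytamoxifen. In the 3 Spt5-depleted libraries the cells had the genotype Supt5hFl/- Rosa26ERT2-cre/+, so that the drug activates a Cre recombinase made from the Rosa26 locus, which deletes the floxed allele beside a null one. The 3 control libraries (WT) were from Rosa26ERT2-cre/+ cells given the same drug. They lack the null allele, and its effect cannot be told apart from that of the induced deletion. Spt5 is a subunit of DSIF, which binds RNA polymerase II and controls its pausing and elongation.

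Translation of an mRNA starts when eIF2 brings the initiator tRNA to the small ribosomal subunit together with eIF1, eIF1A, eIF3 and eIF5. The eIF4F complex binds the mRNA cap and loads that subunit, eIF5B joins the large subunit, and eIF2B recharges eIF2 with GTP for the next round. During elongation eEF1A delivers aminoacyl-tRNAs and eEF2 moves the ribosome along. Resting B cells make little protein and raise this machinery strongly when they are activated, with MYC and mTORC1 among the known regulators.

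Total counts lay between 23340978 and 25649611 in the WT libraries and between 17306549 and 21441575 in the depleted ones. Levels are given as CPM, counts per 1000000 after TMM scaling between libraries. Gene lengths were not used, so levels are compared within a gene, except where genes are sorted into bands of CPM. The targeted gene Supt5 was read 3796, 3512 and 4666 times in WT and 189, 196 and 314 times in the depleted libraries. The libraries also differed by a sex-linked gene: Eif2s3y had 0, 2 and 1 counts in WT and 781, 1007 and 1252 in the depleted libraries, so the genotype cannot be told apart from the presence of Y-linked RNA. The 6 listed B cell markers summed to between 12107 and 12913 CPM in WT and between 12571 and 14755 CPM in depleted libraries. The 5 listed T cell markers summed to at most 13.6 CPM in any library. The 5 counted markers of macrophages and monocytes summed to between 21.3 and 29.5 CPM in WT and between 25.1 and 55.4 CPM in depleted libraries, and their part in the results was not tested. In RNA from whole cultures, fewer cells of a type and less RNA per cell cannot be told apart. The labels do not tell whether the libraries of a group are separate cultures or animals, so p-values measure the variation among these 6 libraries only, which can be of technical origin.

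Most translation factor mRNAs were lower in Spt5-depleted cells, and every elongation factor gene among them was. All 53 genes passed the filter on low counts, and the smallest count of any of them in any library was 107. By edgeR's quasi-likelihood test at an adjusted p under 0.05, 37 of the 53 fell, 4 rose and 12 did not pass. Among all 12024 genes tested the same rule called 30.6% lower and 31.8% higher, 62.4% in all. The median log2 fold change was -0.45 for the 53 genes and 0.005 for all genes tested. The falls ranged from 16.3% for Eif1ax to 81.7% for Eif4ebp1, and the rises were those of Eif1b, Eif4e3, Eif4g3 and Eif4ebp2. For 37 of these genes each depleted library was below each WT library, and for 6 each was above. The shares over all genes tested were 33.3% and 34.2%, or 67.5% together. A fall of at least 2-fold was found for 4 of the 53, Eif4ebp1, Eef2k, Eif4a1 and Eef1a1, against 7.63% of all genes tested, and a rise of that size for 0, against 9.87%. The number that rose was 2 without WT replicate 1 and without Spt5-depleted replicate 1 or 3, and 7 without WT replicate 3.

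**Figure D1:**
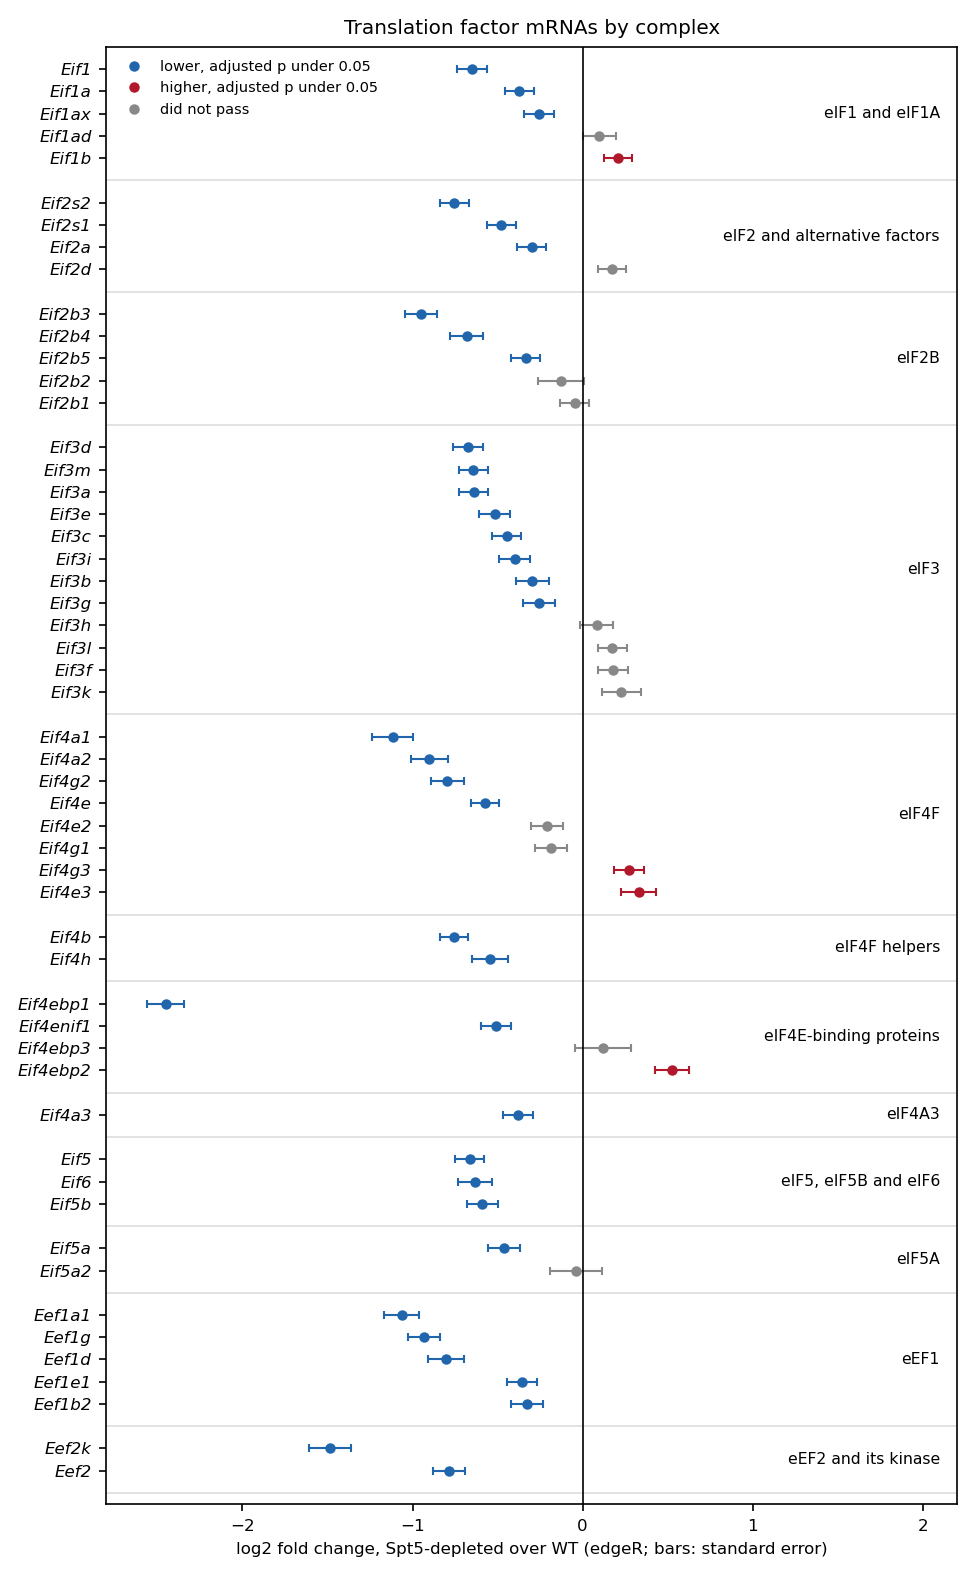
Log2 fold change of each translation factor mRNA in Spt5-depleted over WT cells (horizontal axis, bars show the standard error, 3 libraries a group), with genes grouped by complex on the vertical axis and coloured by the edgeR call. Points for 37 genes lie left of 0 in blue, and the 4 red points are Eif1b, Eif4e3, Eif4g3 and Eif4ebp2.

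The genes had mostly high levels in CPM, which were not corrected for gene length, and at high CPM falls were also more frequent in general. Of the 53, 42 averaged 100 CPM or more over the libraries, and 33 of those fell. Between 100 and 300 CPM 16 of 20 translation factor genes fell, which is 80.0%, against 37.1% of all 1808 genes tested there, and the medians were -0.44 and -0.06. Above 300 CPM 17 of 22 fell, 77.3%, against 50.7% of 578 genes, with medians of -0.47 and -0.25. Between 30 and 100 CPM the shares were close: 3 of 9 fell, 33.3%, against 30.9% of 3330 genes. There 2 of the 9 rose, and the medians were -0.038 and 0.016. Whether the difference from genes of like level exceeds chance was not tested. As a share of all counts in a library, before any scaling, the 53 genes took 3.49%, 3.41% and 3.68% in WT and 2.66%, 2.58% and 2.53% in depleted libraries. The 7 elongation factor genes took 1.80%, 1.82% and 1.99% of the counts in WT and 1.21%, 1.14% and 1.098% in depleted libraries, and the 46 initiation factor genes went from between 1.59% and 1.69% to between 1.43% and 1.45%. In each of these sums all depleted libraries lay below all WT libraries.

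The size of the fall depended on how libraries were scaled. With library totals alone, which moves the median of all genes tested from 0.005 to 0.164, 30 of the 53 were lower and 10 higher, where 22.4% and 41.3% of all genes were. All 30 were among the 37 above, and the median of the 53 was then -0.29. The authors' deposited table has 37 of these genes lower and 3 higher at its adjusted p under 0.05, where 25.7% and 26.4% of its genes are, and Eif1b is the single gene called in the present fit and not there.

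Promoters are shown because factor genes such as Eif4e are known targets of MYC, which with its partner MAX binds the E-box CACGTG. RefSeq promoter windows of GRCm38.p6, 300 bases from 250 before the annotated start, were matched for 41 of the 53 genes, not including Eif4ebp1. The letters CACGTG, which read the same on both strands, were found for 12 of the 41, or 29.3%. The share was 12.1% over 8920 tested genes and 8.09% over all 27025 genes of the promoter table. Of the 12 genes with an E-box 7 fell, 1 rose and 4 did not pass, and of the 29 without one 21 fell. Genes with several annotated starts had more sequence searched, and a match describes the letters only. Each line below gives 30 bases on the gene's own strand, 5′ to 3′, with the E-box in capitals. The first 5 genes fell, Eif1b rose, and Eif3f and Eif4g1 did not pass.
Eif4e (chr3:138527192-138527221, + strand): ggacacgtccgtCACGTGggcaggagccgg
Eif4a1 (chr11:69672595-69672624, - strand): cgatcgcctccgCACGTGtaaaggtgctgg
Eif5a (chr11:69921443-69921472, - strand): aaggggcggggtCACGTGtgtgcgtcatcc
Eef2 (chr10:81176576-81176605, + strand): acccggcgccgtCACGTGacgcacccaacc
Eef2k (chr7:120842788-120842817, + strand): cccggggacggcCACGTGagcccgggcgtg
Eif1b (chr9:120492570-120492599, + strand): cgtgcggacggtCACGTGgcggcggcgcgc
Eif3f (chr7:108934335-108934364, + strand): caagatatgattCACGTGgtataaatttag
Eif4g1 (chr16:20672661-20672690, + strand): ggcagtgggtgtCACGTGatggggcggagc
The box shown begins 64 bases before an annotated start in Eif4e, 43 in Eef2, 31 in Eef2k, 24 in Eif1b, 68 in Eif3f and 54 in Eif4g1. It lies farther off in Eif4a1, at 189 bases, and at 74 or 185 bases from different annotated starts in Eif5a.

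Other letters were found as follows. The ETS core CCGGAAGT was found on either strand for 8 of the 41 (19.5%, against 9.64% of tested genes), 4 that fell and 4 that did not pass, among them Eif3l and Eif3d. CCAAT was found for 14 (34.1%, against 43.4%) and TATAAA for 4 (9.76%, against 8.53%). TGATGNAA, the core of the element bound by ATF4 with C/EBP proteins, was found in Eef2k alone (2.44%, against 2.86%). The YY1 motif was found in Eef1e1 alone (2.44%, against 1.91% of tested genes), and the NRF1 motif in Eif3k alone (2.44%, against 2.53%). A start like that of the TOP mRNAs, whose translation mTORC1 controls, was defined as a C at the annotated start followed by at least 4 pyrimidines on the gene's strand. It was found for Eif3f alone (2.44%, against 3.06%), and annotated starts may be some bases from those used by the cells. Eef1a1 missed the rule with a T at its annotated start, which opens a run of 5 pyrimidines and follows a C. A gene without a match may therefore still have such a start. The start of Eif3f lies in chr7:108934405-108934434 of the + strand, with the unbroken run of pyrimidines from the start in capitals.
Eif3f: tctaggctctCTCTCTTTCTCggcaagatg

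Among the factors that open the scanning complex, eIF1 and eIF1A, 3 of 5 genes fell and 1 rose. Eif1, which guards start codon selection, had 342, 396 and 393 CPM in WT and 253, 233 and 234 CPM in depleted libraries (log2 fold change -0.65 ± 0.09 SE, edgeR adjusted p = 1.62e-05). Its paralog Eif1b had 46.8, 46.9 and 48.0 CPM in WT and 54.9, 55.5 and 53.4 CPM in depleted libraries (0.21 ± 0.08 SE, adjusted p = 0.0414). The paralogs moved in opposite directions without overlap between the groups, and the counts of Eif1b per count of Eif1 went from 0.126 ± 0.010 in WT to 0.228 ± 0.010 in depleted libraries (SD, n = 3 each). The rise of Eif1b was small and its call was lost with DESeq2's Wald test (adjusted p = 0.0587), with no filter on low counts (0.0618), with the replicate number as a block (0.0836) and on leaving out any single library other than WT replicate 3 (adjusted p from 0.0572 to 0.122). Eif1a, an eIF1A gene, had 218, 207 and 194 CPM in WT and 160, 168 and 150 CPM in depleted libraries (-0.37 ± 0.09 SE, adjusted p = 0.00164). Eif1ax, the X-linked eIF1A gene, fell less (-0.26 ± 0.09 SE, adjusted p = 0.0178), a call lost with library totals alone (-0.10, adjusted p = 0.322) and without Spt5-depleted replicate 3 (-0.20, adjusted p = 0.0939). For this X-linked gene an effect of the genotype cannot be told apart from a difference in sex between the groups. Eif1ad, which encodes a protein with an eIF1A domain, had overlapping values (0.10 ± 0.10 SE, adjusted p = 0.382) and was called higher with library totals alone (0.26, adjusted p = 0.0292).

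Of the subunits of eIF2, the factor that carries the initiator tRNA, both measured here fell. Eif2s2, the beta subunit, had 146, 143 and 146 CPM in WT and 85.6, 91.5 and 80.6 CPM in depleted libraries (log2 fold change -0.75 ± 0.08 SE, adjusted p = 2.38e-06). Eif2s1, the alpha subunit whose phosphorylation is the switch of the integrated stress response, had 388, 355 and 401 CPM in WT and 283, 284 and 254 CPM in depleted libraries (-0.48 ± 0.09 SE, adjusted p = 0.000237). Neither subunit had overlapping groups. The gamma subunit, not counted among the 53, is encoded by Eif2s3x and Eif2s3y. Eif2s3x went down from 488 ± 76.4 to 268 ± 17.0 CPM (SD, n = 3 in each group, log2 fold change -0.86, adjusted p = 9.03e-06), while Eif2s3y reached 48.3 ± 5.38 CPM in the depleted libraries alone. For these X-linked and Y-linked genes an effect of the genotype cannot be told apart from a difference in sex between the groups. Eif2a, which can carry initiator tRNA apart from eIF2, fell from 324 ± 11.7 to 263 ± 17.5 CPM (-0.30 ± 0.08 SE, adjusted p = 0.00643), and this was not called with library totals alone (-0.14, adjusted p = 0.149). Eif2d, a factor of non-canonical initiation and of ribosome recycling, stood at 61.7, 61.8 and 61.0 CPM in WT and 71.2, 68.5 and 68.6 CPM in depleted libraries (0.17 ± 0.08 SE, adjusted p = 0.0752). All its depleted values were above all its WT values, and it was called higher with library totals alone (0.33, adjusted p = 0.00254).

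eIF2B, the exchange factor that recharges eIF2, did not move as a unit. Its subunits form a regulatory part, alpha, beta and delta (Eif2b1, Eif2b2 and Eif2b4), and a catalytic part, gamma and epsilon (Eif2b3 and Eif2b5). Eif2b3 had 51.4, 46.6 and 54.4 CPM in WT and 26.8, 26.6 and 25.4 CPM in depleted libraries (log2 fold change -0.95 ± 0.09 SE, adjusted p = 8.01e-07). Eif2b4 had 65.1, 65.8 and 79.2 CPM in WT and 43.3, 44.8 and 42.8 CPM in depleted libraries (-0.68 ± 0.10 SE, adjusted p = 2.38e-05). Eif2b5 fell from 150 ± 9.27 to 119 ± 2.86 CPM (-0.34 ± 0.08 SE, adjusted p = 0.00276). So both genes of the catalytic part fell, Eif2b3 to about 0.517 of its WT level, and the call of Eif2b5 was lost with library totals alone (-0.18, adjusted p = 0.0817). Eif2b1 had between 198 and 207 CPM in WT and between 178 and 206 CPM in depleted libraries (-0.05 ± 0.09 SE, adjusted p = 0.654). Eif2b2 stood at 91.8 ± 20.6 and 84.2 ± 4.39 CPM (-0.13 ± 0.13 SE, adjusted p = 0.431), with 73.0, 88.7 and 114 CPM in WT, a spread wider than the difference. It was called lower without WT replicate 1 (-0.27, adjusted p = 0.0386).

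eIF3, the scaffold that holds the small subunit, the other factors and the mRNA together, split by subunit. Its 12 genes counted here had a median log2 fold change of -0.35: 8 fell, none rose and 4 did not pass. The 5 subunits that budding yeast also has, a, b, c, g and i, all fell. Eif3a, the largest of them, had 787, 716 and 768 CPM in WT and 458, 496 and 503 CPM in depleted libraries (-0.64 ± 0.09 SE, adjusted p = 1.35e-05). Eif3c stood at -0.45 (adjusted p = 0.000309), Eif3i at -0.40 (0.00128), Eif3b at -0.30 (0.0171) and Eif3g at -0.26 (0.028). The falls of Eif3b and Eif3g were close to the threshold. Eif3b was not called with library totals alone (adjusted p = 0.245), without WT replicate 3 (0.0592) or without Spt5-depleted replicate 1 (0.0643). Eif3g was not called with library totals alone (adjusted p = 0.372), without WT replicate 3 (0.114) or without any 1 of the depleted libraries (between 0.0659 and 0.0812).

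The other eIF3 subunits are absent from budding yeast and fell or stayed near their WT level. Eif3d, which can bind the cap of some mRNAs, had 491, 483 and 556 CPM in WT and 338, 311 and 309 CPM in depleted libraries (log2 fold change -0.67 ± 0.09 SE, adjusted p = 1.17e-05). Eif3m fell from 308 ± 5.22 to 197 ± 16.8 CPM (-0.64, adjusted p = 1.61e-05) and Eif3e from 650 ± 50.1 to 454 ± 28.0 CPM (-0.52, adjusted p = 0.000163; errors are SD of 3). For these the groups did not overlap. Eif3f, shown above with its promoter, had 725, 726 and 822 CPM in WT and 906, 820 and 847 CPM in depleted libraries (0.18 ± 0.09 SE, adjusted p = 0.0912). Eif3h, which like Eif3f encodes a subunit with an MPN domain, had 1167, 1152 and 1159 CPM in WT and 1397, 1173 and 1109 CPM in depleted libraries (0.08 ± 0.10 SE, adjusted p = 0.476). The groups of both overlapped, and the spread of Eif3h in depleted libraries came from replicate 1. Eif3k had 264, 295 and 365 CPM in WT and 402, 339 and 340 CPM in depleted libraries (0.23 ± 0.12 SE, adjusted p = 0.103). Eif3l, whose product pairs with that of Eif3k, had 784, 737 and 824 CPM in WT and 905, 871 and 872 CPM in depleted libraries (0.17 ± 0.08 SE, adjusted p = 0.0834). Of these 4 genes Eif3l alone had groups that did not overlap. With library totals alone all 4 were called higher, at 0.24 to 0.38 with adjusted p from 0.00232 to 0.0289, and 6 of the 12 eIF3 genes were called lower. That setting called 41.3% of all genes tested higher and 22.4% lower, and moved their median from 0.005 to 0.164. Without WT replicate 3 Eif3k (0.36, adjusted p = 0.00486) and Eif3f (0.24, adjusted p = 0.0321) were called higher.

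The split within eIF3 does not rest on scaling between libraries, because a ratio of counts within a library is free of it. The counts of Eif3f, Eif3h, Eif3k and Eif3l together, per count of the 5 subunits shared with yeast, were 0.834, 0.874 and 0.845 in WT and 1.36, 1.203 and 1.23 in depleted libraries. All depleted ratios were above all WT ratios, and the mean was 1.49 times as high. The 4 genes were grouped after their values were seen, so a higher ratio follows from that choice and no test is given.

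**Figure D2:**
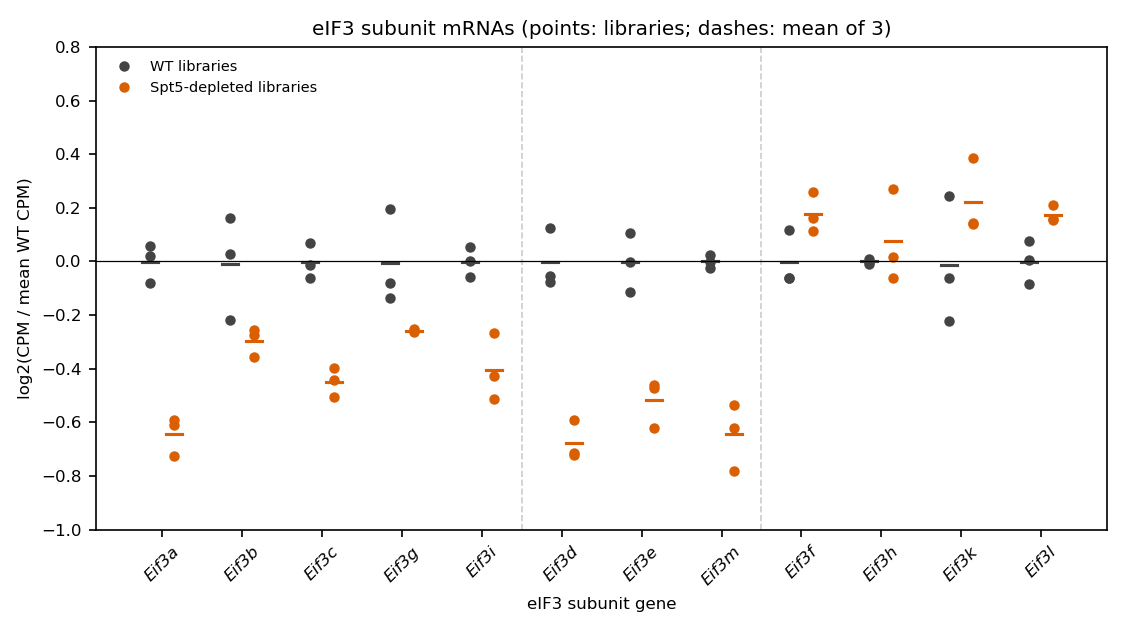
Level of each eIF3 subunit mRNA in each library as log2 of its CPM over the mean WT CPM (vertical axis), with WT libraries in grey, Spt5-depleted libraries in orange and a dash at the mean of 3. The 5 subunits shared with budding yeast are at the left, d, e and m in the middle, and f, h, k and l at the right, where the depleted means are above 0.

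In eIF4F, the complex that binds the mRNA cap, 4 of 8 genes fell and 2 rose, and close relatives differed. Eif4e, the cap-binding protein, had 202, 193 and 209 CPM in WT and 138, 139 and 129 CPM in depleted libraries (log2 fold change -0.57 ± 0.08 SE, adjusted p = 2.76e-05). Eif4e2, a cap-binding relative that represses translation, had 157, 147 and 168 CPM in WT and 132, 150 and 127 CPM in depleted libraries (-0.21 ± 0.09 SE, adjusted p = 0.06). Eif4e3, an atypical relative, had 29.4, 34.1 and 37.4 CPM in WT and 44.1, 43.0 and 39.8 CPM in depleted libraries (0.33 ± 0.10 SE, adjusted p = 0.0119). Eif4e fell and Eif4e3 rose without overlap, and the counts of Eif4e3 per count of Eif4e went from 0.167 ± 0.018 to 0.313 ± 0.006 (SD, n = 3 each). The call of Eif4e3 was lost without WT replicate 1 (0.24, adjusted p = 0.0537) and without Spt5-depleted replicate 1 (0.30, adjusted p = 0.0503). Eif4e2 was called lower without WT replicate 2 (-0.26, adjusted p = 0.0368) and without Spt5-depleted replicate 2 (-0.28, adjusted p = 0.0351).

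The eIF4G scaffolds also went different ways. Eif4g1, the main scaffold of eIF4F, had 735, 607 and 617 CPM in WT and 554, 553 and 615 CPM in depleted libraries (log2 fold change -0.18 ± 0.10 SE, adjusted p = 0.104). Eif4g2, a relative that lacks the eIF4E-binding site and serves cap-independent initiation, had 2402, 1935 and 1919 CPM in WT and 1213, 1188 and 1206 CPM in depleted libraries (-0.79 ± 0.10 SE, adjusted p = 7.58e-06). Eif4g3, a scaffold that resembles Eif4g1, had 127, 126 and 134 CPM in WT and 143, 153 and 171 CPM in depleted libraries (0.27 ± 0.09 SE, adjusted p = 0.0146). The groups overlapped for Eif4g1 only. Per count of Eif4g1, the counts of Eif4g2 went from 3.19 ± 0.079 to 2.098 ± 0.121 and those of Eif4g3 from 0.199 ± 0.023 to 0.271 ± 0.011 (SD, n = 3 each). The call of Eif4g3 was lost without Spt5-depleted replicate 3, the highest library (0.21, adjusted p = 0.0765).

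Both eIF4A helicases of the complex, which unwind the mRNA leader, fell. Eif4a1 had 61.4, 65.4 and 85.5 CPM in WT and 30.7, 34.4 and 32.8 CPM in depleted libraries (log2 fold change -1.12 ± 0.12 SE, adjusted p = 1.91e-06). Eif4a2 had 299.8, 410.3 and 335 CPM in WT and 186, 174 and 199.6 CPM in depleted libraries (-0.90 ± 0.11 SE, adjusted p = 6.24e-06). The counts of Eif4a1 per count of Eif4a2 overlapped between the groups, at 0.206 ± 0.048 and 0.176 ± 0.019 (SD, n = 3 each). These genes are close in sequence, and the name of Eif4a2 in the table has a suffix that could stand for an overlapping gene, so how reads were divided between them is uncertain. Whether reads of Eif4a1 were lost in the authors' counting was not tested, and its level and its fall of over 2-fold are uncertain to that extent. Eif4a3, a relative that works in the exon junction complex and not in initiation, fell from 192 ± 18.9 to 148 ± 2.08 CPM (-0.38 ± 0.09 SE, adjusted p = 0.00185). Of the helpers of the helicase, Eif4b had 691, 625 and 648 CPM in WT and 388, 387 and 387 CPM in depleted libraries (-0.76 ± 0.08 SE, adjusted p = 1.92e-06). Eif4h, the other helper, had 276, 204 and 249.5 CPM in WT and 169.6, 177 and 154 CPM in depleted libraries (-0.55 ± 0.11 SE, adjusted p = 0.00044). All depleted libraries were below all WT libraries for these 5 genes.

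The eIF4E-binding proteins, which block the assembly of eIF4F until mTORC1 phosphorylates them, held the largest change of the 53 genes. Eif4ebp1 had 161, 181 and 199 CPM in WT and 37.5, 29.9 and 31.8 CPM in depleted libraries, 5.47-fold lower (log2 fold change -2.45 ± 0.11 SE, adjusted p = 3.29e-10). It rested on 3828, 3983 and 4845 counts in WT and on 672, 638 and 735 counts in depleted libraries. Its paralog Eif4ebp2 had 175, 162 and 133 CPM in WT and 230, 225 and 223 CPM in depleted libraries (0.52 ± 0.10 SE, adjusted p = 0.000324). The paralogs moved in opposite directions, with every depleted library of Eif4ebp1 far below WT and every one of Eif4ebp2 above it. Within a library, the counts of Eif4ebp2 per count of Eif4ebp1 were 1.09, 0.896 and 0.669 in WT and 6.13, 7.52 and 7.01 in depleted libraries. The counts of Eif4ebp1 per count of Eif4e went from 0.897 ± 0.085 to 0.244 ± 0.028, while those of Eif4ebp2 per count of Eif4e went from 0.783 ± 0.126 to 1.67 ± 0.052 (SD, n = 3 each). Inhibitor and target thus changed in unequal measure, in a different sense for each inhibitor. Eif4ebp1 is also a known target of ATF4, and over all alternative settings its log2 fold change stayed between -2.55 and -2.29. Eif4ebp3 had 16.6, 16.6 and 26.1 CPM in WT and 19.5, 21.5 and 23.5 CPM in depleted libraries (0.12 ± 0.16 SE, adjusted p = 0.542), with overlapping groups. It was called higher without WT replicate 3 (0.37, adjusted p = 0.0106). Eif4enif1, a transporter that takes eIF4E into the nucleus and also represses mRNAs, had 131, 136 and 146 CPM in WT and 94.5, 90.1 and 104 CPM in depleted libraries (-0.51 ± 0.09 SE, adjusted p = 0.000158).

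The 3 factors that act when the ribosomal subunits join all fell. Eif5, which makes eIF2 hydrolyse its GTP, had 698, 711 and 622 CPM in WT and 419, 429.8 and 432 CPM in depleted libraries (log2 fold change -0.67 ± 0.09 SE, adjusted p = 9.81e-06). Eif5b, the joining factor, had 226, 221 and 263 CPM in WT and 152, 151 and 169 CPM in depleted libraries (-0.59 ± 0.09 SE, adjusted p = 6.65e-05). Eif6, which keeps free large subunits from joining and also serves their assembly, had 136, 125 and 161 CPM in WT and 94.9, 92.9 and 85.4 CPM in depleted libraries (-0.63 ± 0.10 SE, adjusted p = 7.04e-05). The 3 log2 fold changes were within 1 SE of each other, and no groups overlapped. Eif5a, the hypusine-bearing factor that helps ribosomes at difficult peptide bonds, had 748, 656 and 818 CPM in WT and 546, 550.2 and 515 CPM in depleted libraries (-0.46 ± 0.09 SE, adjusted p = 0.000579). Its paralog Eif5a2 had 39.8, 29.3 and 24.0 CPM in WT and 28.7, 32.3 and 29.6 CPM in depleted libraries (-0.04 ± 0.15 SE, adjusted p = 0.843). The depleted values of Eif5a2 lay inside its WT range, while those of Eif5a lay below theirs.

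All 7 elongation factor genes fell, with a median log2 fold change of -0.80. Eef1a1, which encodes the carrier of aminoacyl-tRNAs, had 9366, 10574 and 11285 CPM in WT and 5407, 4955 and 4577 CPM in depleted libraries (-1.06 ± 0.10 SE, adjusted p = 7.09e-07). The exchange complex that reloads eEF1A consists of eEF1B alpha, delta and gamma. Its gamma subunit Eef1g had 1946, 1908 and 2259 CPM in WT and 1132, 1051 and 1023 CPM in depleted libraries (-0.93 ± 0.09 SE, adjusted p = 9.93e-07). Eef1d, the delta subunit, fell from 354 ± 54.8 to 203 ± 8.12 CPM (-0.80 ± 0.10 SE, adjusted p = 1.03e-05). Eef1b2, the alpha subunit, fell less, from 2633 ± 128 to 2099 ± 188 CPM (-0.33 ± 0.09 SE, adjusted p = 0.0072), so the subunits of the exchange complex fell to unequal extents. Eef1e1, named as an elongation factor but known as a scaffold protein of the multi-synthetase complex, fell from 251 ± 18.1 to 196 ± 9.74 CPM (-0.36 ± 0.09 SE, adjusted p = 0.0024). With library totals alone Eef1b2 (-0.17, adjusted p = 0.0973) and Eef1e1 (-0.20, adjusted p = 0.0577) were not called. Eef1a1 and other abundant members have processed pseudogenes that can share their reads.

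The translocase and its kinase were both lower. Eef2 had 4412, 3763 and 4059 CPM in WT and 2456, 2360 and 2270 CPM in depleted libraries (log2 fold change -0.79 ± 0.09 SE, adjusted p = 4.36e-06). Eef2k, the calcium-dependent kinase that inactivates eEF2 and slows elongation, had 15.5, 16.0 and 17.7 CPM in WT and 5.97, 5.99 and 5.58 CPM in depleted libraries, 2.80-fold lower (-1.49 ± 0.12 SE, adjusted p = 1.28e-07). This was the second largest change among the 53 genes, on 351 to 430 counts a library in WT and 107 to 129 in depleted cells. The kinase fell further than its target: the counts of Eef2k per count of Eef2 were 0.00352, 0.00424 and 0.00436 in WT and 0.00243, 0.00254 and 0.00246 in depleted libraries. No depleted ratio reached a WT ratio. A single ratio in 3 against 3 libraries cannot reach an exact two-sided p below 0.1, so none is given for the ratios.

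**Figure D3:**
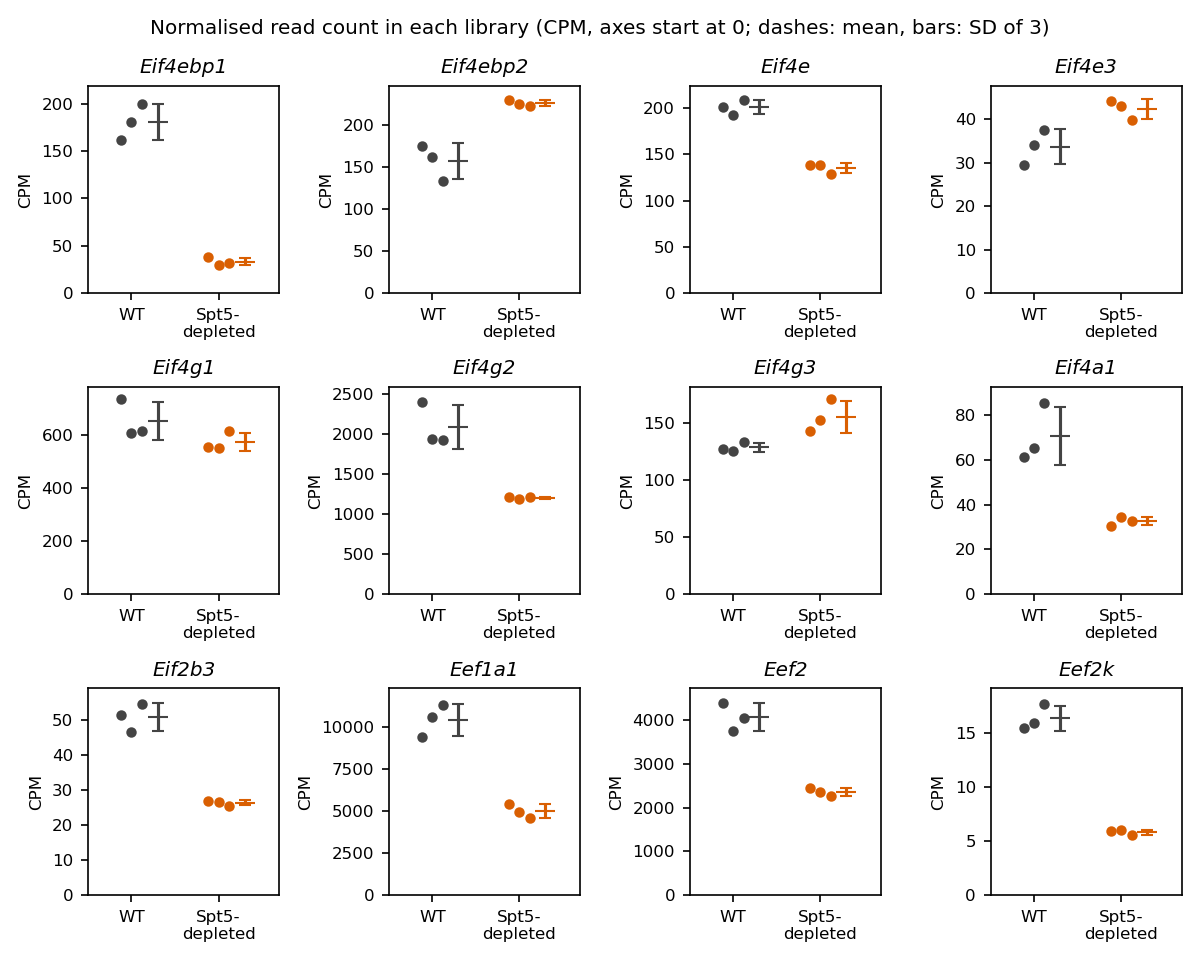
Normalised read count (CPM, vertical axes start at 0) of 12 translation factor mRNAs in each WT library (grey) and Spt5-depleted library (orange), with the mean and SD of 3 beside the points. Eif4ebp1 drops from between 161 and 199 to between 29.9 and 37.5 CPM, Eif4ebp2, Eif4e3 and Eif4g3 are higher in every depleted library, and the groups overlap for Eif4g1.

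Other genes of translation were read from lists and did not share one direction. Of 47 genes in 6 lists, 17 fell and 13 rose, where 30.6% and 31.8% of all genes tested did. With library totals alone those shares of all genes were 22.4% and 41.3%. Of 6 genes for termination, recycling and rescue 4 fell and 0 rose, led by Abce1, which splits ribosomes after termination (569 ± 30.1 and 369 ± 15.8 CPM, adjusted p = 1.50e-05). Of 11 partners in scanning, cap binding and poly(A) binding 6 fell and 3 rose, and with library totals alone 2 fell and 4 rose. Ddx3x, an X-linked helicase, fell from 580 ± 49.4 to 299 ± 17.6 CPM (log2 fold change -0.96, adjusted p = 5.23e-07). Here too an effect of the genotype cannot be told apart from a difference in sex. Mknk2, a kinase that phosphorylates eIF4E, rose from 237 ± 30.3 to 517 ± 41.6 CPM (1.12, adjusted p = 3.76e-07). Pdcd4, an inhibitor of eIF4A, rose too (1.01, adjusted p = 1.15e-06), and was picked after its value was seen. Mknk1, the other kinase of eIF4E in the list, fell from 42.4 ± 3.13 to 33.3 ± 0.872 CPM (-0.35, adjusted p = 0.0044), so the 2 kinase genes moved in opposite directions. It too was picked after its value was seen, and its call was lost with library totals alone (-0.19, adjusted p = 0.0878).

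Genes upstream of the factors were mixed in direction. Of 9 genes of the mTORC1 axis 6 rose and 2 fell, both with TMM and with library totals alone. Of all genes tested 31.8% rose and 30.6% fell with TMM, and 41.3% and 22.4% with library totals alone. In the mTORC1 list 5 rose with no filter, with the replicate number as a block, and without any single library other than WT replicate 1. Tsc1, part of the complex that restrains mTORC1, rose from 17.7 ± 0.697 to 31.6 ± 1.77 CPM (adjusted p = 4.15e-06), and Mlst8, an mTOR partner, went from 15.4 ± 0.841 down to 5.95 ± 0.530 CPM (errors are SD of 3, adjusted p = 4.04e-07). Also risen were Tsc2 (log2 fold change 0.63), Rheb (0.67), Rptor (0.38), Rps6kb2 (0.38) and Rps6kb1 (0.22). The call of Rps6kb1 was close to the threshold (edgeR adjusted p = 0.0365) and is absent from the authors' deposited table. Larp1 also fell (-0.60), and Mtor did not pass (0.02). Of 8 kinases, phosphatase subunits and regulators that act on eIF2, Eif2ak1 rose (0.31, adjusted p = 0.0049), Eif2ak4, the sensor of uncharged tRNA, fell (-0.52, adjusted p = 0.000329) and 6 did not pass. Of 9 mitochondrial translation factors 2 rose, led by Mtrf1l (0.82, adjusted p = 4.56e-05), and 2 fell, led by Mrrf (-0.48, adjusted p = 0.000244). The median log2 fold change of the mitochondrial list was -0.05. With library totals alone it was 0.11, with 4 genes higher and 1 lower, where the median of all genes tested was 0.164. Of 4 genes for eIF5A hypusination and selenocysteine insertion, Eefsec rose (0.52, adjusted p = 0.000131) and Dhps, the first enzyme of hypusine synthesis, fell (-0.65, adjusted p = 8.90e-05) with Secisbp2.

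Of the genes that work beside the factors, 19 of 20 cytosolic aminoacyl-tRNA synthetases fell, with a median log2 fold change of -0.89, against -0.45 for the 53 factor genes. With library totals alone 17 of the synthetases fell, with a median of -0.73. Of all genes tested 30.6% fell with TMM and 22.4% with library totals alone. The synthetase gene with the smallest p was Cars (115 ± 12.1 and 33.0 ± 1.36 CPM, adjusted p = 1.85e-09). The 70 genes for cytosolic ribosomal proteins had a median of -0.34, with 39 lower and none higher, or 27 lower and 2 higher with library totals alone. Of all genes tested 31.8% were higher with TMM and 41.3% with library totals alone. Leaving out single libraries gave between 31 and 46 ribosomal protein genes lower. Their share of all counts overlapped between the groups, at 4.74% to 5.24% in WT and 3.88% to 4.78% in depleted libraries. The difference between these lists and the factor genes was not tested.

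**Figure D4:**
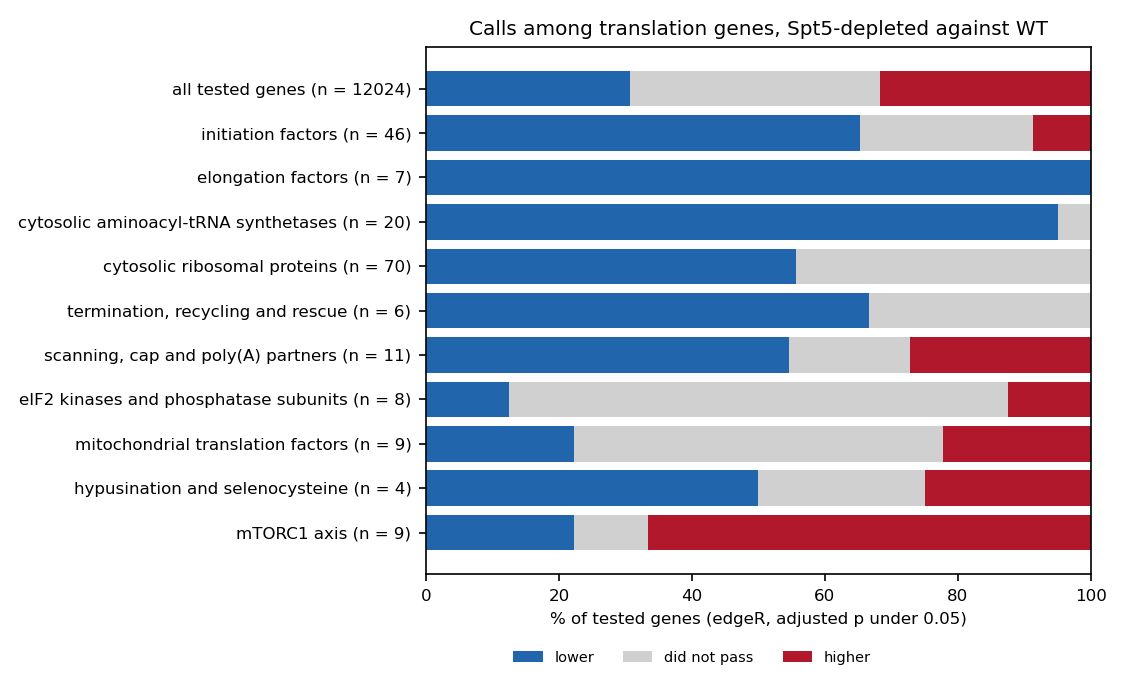
Share of tested genes called lower (blue), higher (red) or not passing (grey) by edgeR at an adjusted p under 0.05 (horizontal axis, %) for the initiation and elongation factors, for other lists of translation genes and for all 12024 genes tested, with the number of genes beside each name. The bar of the 7 elongation factors is blue throughout, and the mTORC1 axis has 6 of 9 genes in red.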

How the data were processed

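RNA-seq counts of 3 WT and 3 Spt5-depleted libraries were analysed, and the 18 samples of other assays were not used here. Per the labels, poly(A) libraries were made with a Lexogen SENSE kit. Build mm9, featureCounts 1.5.0-p1, TopHat, Bowtie2 2.1.0, DESeq2 1.10.1 and cutadapt 1.10 are named in the submitters' processing notes. The sources used here do not give the annotation, the strand setting or the treatment of multiply mapped reads. The authors' deposited table gives raw read counts for genes with at least 10 counts in all, with the authors' log2 fold change and adjusted p-value. A suffix that may mark an overlapping gene is on 6 of the 53 names (Eif5b, Eif3m, Eif2a, Eif3b, Eif4a2 and Eif1ad). Of the other genes named, Eif2ak1, Pdcd4, Mlst8, Rptor, Tsc2, Mrrf, Dhps and Cars carry it too.

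Counts were fitted in R 4.3.3 with edgeR 4.0.16 (filterByExpr, TMM factors from 0.943 to 1.078, robust quasi-likelihood F test, two-sided, Benjamini-Hochberg over 12024 genes, threshold 0.05). TMM rests on most genes being unchanged, while 62.4% were called. The biological coefficient of variation was 0.098, and standard errors were derived from F. Alternatives were other scalings, no filter or a mean of at least 5 CPM, DESeq2 1.42.0, limma-voom (limma 3.58.1), the replicate number as a block, names with a suffix left out, and leaving out each library. The test was tried on simulated counts in which few genes were changed, as many up as down. Those counts do not show how the scaling behaves when most genes change. Replicates of a group were not copies of each other (chi-square per degree of freedom from 6.13 to 31.2).

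Genes, lists and ratios were chosen with earlier results of these data known. Values per library are given for up to 2 risen and 2 fallen genes of each complex with the smallest p, for a fixed set of paralogs and core factors, and for the eIF3 subunits that did not pass; of the other lists, the gene with the smallest p in each direction. Promoters were matched by symbol to a RefSeq table of GRCm38.p6. A planned comparison of protein sequences was not made.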

Additional observations from a re-analysis of the deposited data

How the results depend on the processing

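Of the 37 translation factor genes that fell, 30 were also called lower with library totals alone, and at least 35 with each other setting tried, including upper-quartile factors, DESeq2's size factors, limma-voom and no filter. Among the 47 without a name suffix 32 fell. The number that rose was less stable: it was 4 in the fit reported, 10 with library totals alone, and between 2 and 7 when a single library was left out, while the number that fell was then between 35 and 38. Without WT replicate 1, Spt5-depleted replicate 1 or Spt5-depleted replicate 3 it was 2, and without WT replicate 3 it was 7. The lost and gained calls are given beside each gene, and the cause was not tested. Signs turned only for 4 genes that did not pass in either fit. With library totals alone Eif5a2, Eif2b1 and Eif2b2 stood at log2 fold changes of 0.12, 0.11 and 0.032. With single libraries left out, Eif5a2 ranged from -0.20 to 0.18 (turned without WT replicate 1), Eif2b1 from -0.085 to 0.022 (without Spt5-depleted replicate 3), Eif2b2 from -0.27 to 0.053 (without WT replicate 3) and Eif3h from -0.023 to 0.15 (without Spt5-depleted replicate 1). The deviations of same-numbered libraries from their group means correlated at 0.038, -0.040 and -0.005 over genes, and those of unlike number at -0.075 to 0.0875. With 3 libraries a group, such values cannot tell whether libraries were handled in pairs. With the replicate number as a block 37 of these genes were lower and 3 higher, and the call of Eif1b was lost (adjusted p = 0.0836). Every gene had at least 107 counts in each library, and how far depth limits the calls was not tested.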
